A study of Mus musculus with 3 samples.

Results

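The cytochrome P450 genes outside the Cyp4a group were followed through single cells of whole mouse kidney. Members were all genes whose symbol begins with Cyp and a digit, without the Cyp4a genes, Cyp2j13, Cyp24a1, Cyp27b1, Cyp51 and the symbols marked as pseudogenes. The rule kept 89 of 101 such symbols among the 32285 genes of the count tables, and 88 of the 89 are annotated as protein coding, the other being the antisense transcript Cyp4x1os. All mice were male and 28 weeks old: the db/m control group ate a fructose-free control diet, the db/db control group ate that same food, and the db/db fructose group ate food with 60% fructose, each from 8 weeks of age for 20 weeks. db/db mice lack the signalling form of the leptin receptor and become obese and diabetic, and db/m mice carry a single mutated allele and serve as lean controls. Kidneys were digested with collagenase and Pronase, red cells, debris and dead cells were removed, and droplet libraries were made, 1 per group. How many mice each library held is not given in the sources used here. With 1 library per group there is no replicate spread and no test: differences below are between libraries, and every interval covers counting error only. The control-diet db/db library is used in both comparisons.

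P450 enzymes are haem proteins that insert an oxygen atom into lipids, steroids and foreign compounds. Most sit in the endoplasmic reticulum, where P450 oxidoreductase and cytochrome b5 pass them electrons, and a few, such as Cyp27a1, sit in mitochondria and are fed by ferredoxin. In the kidney they are best known from the proximal tubule, and in male mice several of them (Cyp4b1, Cyp2e1, Cyp2j5, Cyp2d9) are known to depend on androgens.

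Members of 1 family can be close copies, which matters both for control and for counting. Cyp2a4 and Cyp2a5 are such a pair, and the ratio of their levels differed between the libraries (below), so the 250 bases before their start sites are shown, from RefSeq on GRCm38.p6. Cyp2a4 lies at chr7:26306942-26307191 and Cyp2a5 at chr7:26835089-26835338, both on the plus strand. Capitals mark the bases at which the pair differs, and a base at one end without a partner.
Cyp2a4: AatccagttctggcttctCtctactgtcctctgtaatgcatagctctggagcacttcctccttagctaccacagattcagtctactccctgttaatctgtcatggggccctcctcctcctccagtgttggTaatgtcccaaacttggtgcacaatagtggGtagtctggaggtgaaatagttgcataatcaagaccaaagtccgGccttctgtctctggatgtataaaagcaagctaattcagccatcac
Cyp2a5: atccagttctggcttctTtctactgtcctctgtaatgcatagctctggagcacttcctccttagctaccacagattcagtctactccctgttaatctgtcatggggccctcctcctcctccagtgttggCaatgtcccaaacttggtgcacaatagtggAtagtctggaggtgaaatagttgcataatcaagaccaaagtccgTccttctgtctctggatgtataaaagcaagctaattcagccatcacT
Of 250 bases, 245 were identical (98%) and 4 were mismatched.

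Cyp4b1 and Cyp2d26 are shown because one was lower and the other higher in db/db than in db/m proximal cells. Cyp4b1 lies at chr4:115647722-115647971 and Cyp2d26 at chr15:82794246-82794495, both on the minus strand, and each is printed in the direction of transcription. Capitals mark matches to searched motifs: the STAT motif TTCNNNGAA in Cyp4b1 and the HNF1 half-site GTTAAT in Cyp2d26, each searched on both strands.
Cyp4b1: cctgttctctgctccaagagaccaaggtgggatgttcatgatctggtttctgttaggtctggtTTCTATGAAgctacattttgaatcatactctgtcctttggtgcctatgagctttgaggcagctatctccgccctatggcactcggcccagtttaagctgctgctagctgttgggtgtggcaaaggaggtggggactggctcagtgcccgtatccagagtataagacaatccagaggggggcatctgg
Cyp2d26: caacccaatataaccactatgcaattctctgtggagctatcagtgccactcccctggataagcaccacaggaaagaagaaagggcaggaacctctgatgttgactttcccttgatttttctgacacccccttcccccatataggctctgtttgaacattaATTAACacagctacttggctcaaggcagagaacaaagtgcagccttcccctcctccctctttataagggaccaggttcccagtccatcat
Promoter entries existed for 72 members (81 entries). TTCNNNGAA occurred in 6.17% of the member promoters and in 7.02% of all 32851 promoters, and GTTAAT in 11.1% and 6.43%. A match describes the letters and is no evidence of a bound site.

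After removal of barcodes with under 200 genes or over 50% mitochondrial UMIs, and of presumed doublets, 9940, 16227 and 16049 cells remained in the libraries of db/m control, db/db control and db/db fructose, in that order throughout, of 13524, 26513 and 20383 barcodes. UMIs are unique molecular identifiers, each marking 1 captured transcript. Proximal tubule-like cells numbered 5970, 6458 and 8783 and held between 11158246 and 14879036 UMIs. All 20 proximal markers were at 10 or more CPM (UMIs of the gene per 1000000 UMIs of the class) in every library. Each pair of libraries shared 379 to 780 barcodes (2.80 to 3.83% of the smaller library). The libraries differed in tissue state: mitochondrial UMIs were a median 14.5%, 20.6% and 9.26% of proximal cells' UMIs, and unnamed clusters held 187, 3040 and 842 cells. Of these, cluster 14 held 102, 2946 and 449 cells, with a median 37.6% mitochondrial UMIs. Its best-scoring class was proximal tubule, at 0.94, below the 1.2 needed for a name. Its cells are in no proximal sum, and the effect of leaving them out was not tested. Different clusters held most proximal cells: clusters 0, 1 and 2 in db/m control (1340, 1983 and 1995 cells) and clusters 15, 17 and 21 in db/db control (3432, 1750 and 1010 cells) and db/db fructose (1137, 3416 and 3241 cells). Free RNA was present in all libraries: markers of other tubule segments stood in proximal cells at 33.6%, 47.5% and 40.9% of their level in the whole library.

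Proximal cells were also split by a score into early, middle and late ranges, from 7 early genes (such as Slc5a2) and 7 late genes (such as Slc6a18), none of them a P450 gene. These are ranges of a score and not cell types: 1023, 1326 and 1738 of the placed cells in the 3 libraries lay within 0.1 of a limit (17.9%, 21.1% and 20.1%). Early cells were 20.0%, 43.5% and 43.8% of proximal cells in db/m control, db/db control and db/db fructose, and late cells 44.5%, 19.5% and 26.2%. Because these shares differed, member ratios were also computed within segments. The score used the same scale for all libraries, and its own genes differed between them. In late cells Atp11a, Aadat, Rnf24, Slc27a2 and Napsa were lower in db/db control than in db/m control (Atp11a 471 against 1869 CPM). Slc3a1 and Slc6a18 were higher (Slc6a18 970 against 565 CPM). Neither the shares nor the ratios within segments can therefore separate segment mix from the level of the score's genes.

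In proximal tubule-like cells, 16 of the 89 members reached 10 CPM in at least 1 library, and 7 reached 100 CPM. A further 13 peaked between 1 and 10 CPM and 21 below 1 CPM, and 39 had no UMI in proximal cells of any library. Of the 16, 12 belonged to the Cyp2 family of 48 members, 3 to the 13 Cyp4 members, and 1, Cyp27a1, to the 6 sterol and bile acid members. None of the 3 Cyp1, 9 Cyp3a, 6 steroid hormone and 3 retinoid members reached 10 CPM there. Over all kept cells, 30 members had no UMI. Summed over members, P450 transcripts made up 3041 CPM in db/m control, 1604 CPM in db/db control and 2229 CPM in db/db fructose proximal cells. Few genes weigh heavily in these sums: Cyp4b1 alone was 35.1% of that of db/m control. Cyp2j5 was 26.7% and 29.0% of those of db/db control and db/db fructose. The order of these sums was the same in early cells (2516, 1421 and 1851 CPM) and in late cells (3405, 1894 and 2887 CPM).

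**Figure D1:**
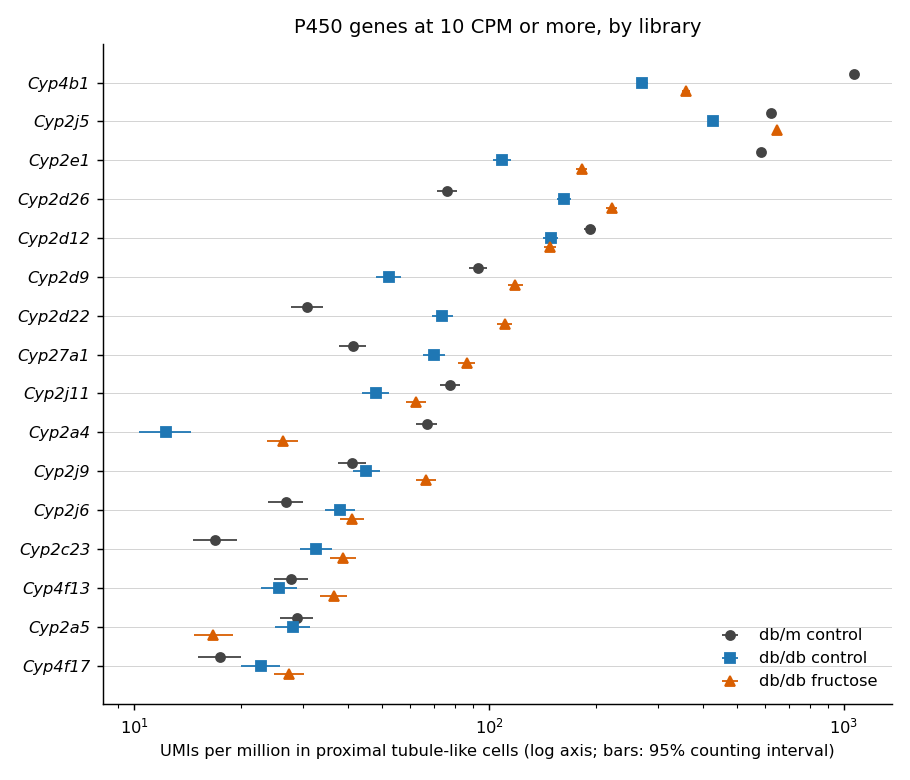
Level of the 16 members that reached 10 CPM in proximal tubule-like cells, 1 point per library, on a log axis, with 95% exact Poisson intervals (counting error only). For Cyp4b1, Cyp2e1 and Cyp2a4 the db/m control point lies to the right of both db/db points, and for Cyp2d26, Cyp2d22, Cyp27a1 and Cyp2c23 it lies to the left of both.

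Between db/db control and db/m control, the members did not move one way. Of 16 measured (10 CPM or more in either library), 4 were at least 1.5-fold higher in db/db control (Cyp2d22, Cyp2d26, Cyp2c23 and Cyp27a1) and 5 at least 1.5-fold lower (Cyp2a4, Cyp2e1, Cyp4b1, Cyp2d9 and Cyp2j11). Over all 8733 genes measured in these cells, 7.37% were higher and 16.6% lower by the same rule. The median log2 ratio was -0.08 for the members and -0.03 for all genes.

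Cyp4b1, which hydroxylates fatty acids and activates some foreign compounds such as furans, stood at 1066 CPM in db/m control, 270 CPM in db/db control and 359 CPM in db/db fructose. The db/m control library was the high one, and its interval overlapped neither other. The db/db control level was 3.95-fold lower (log2 ratio -1.98, 95% counting interval -2.04 to -1.92). The log2 ratio lay between -1.94 and -1.73 in the 3 segments. Within clusters 15, 17 and 21, which held most proximal cells of the db/db libraries, Cyp4b1 was also lower in db/db control. The log2 ratios were -1.76, -1.68 and -1.68, although db/m control had only 136, 299 and 40 cells there. The other proximal clusters were not compared in this way, among them cluster 16, with 161, 134 and 576 cells in the 3 libraries.

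Cyp2e1, the ethanol- and acetone-oxidising enzyme, stood at 584, 109 and 182 CPM in the same order of libraries. Its db/db control level was 5.36-fold lower than in db/m control (log2 -2.42, -2.51 to -2.33), and log2 ratios in the segments lay between -2.43 and -1.99. In clusters 15, 17 and 21 the log2 ratios were -1.95, -2.61 and -1.07.

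Cyp2a4, a testosterone hydroxylase, stood at 66.7, 12.3 and 26.3 CPM and was 5.43-fold lower in db/db control (log2 -2.44, -2.71 to -2.18). The log2 ratio was -2.01 in early, -1.74 in middle and -2.46 in late cells, and -1.65, -2.55 and -2.09 in clusters 15, 17 and 21. These cluster ratios rest on only 6, 22 and 6 Cyp2a4 UMIs of db/m control. Their intervals were -2.86 to -0.15, -3.45 to -1.65 and -3.33 to -0.56. Its near-copy Cyp2a5, a coumarin hydroxylase, stood at 28.8 CPM in db/m control and 28.0 CPM in db/db control, a log2 ratio of -0.04 (-0.27 to 0.19).

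Cyp2d9, a steroid hydroxylase known from male liver and kidney, stood at 93.2, 52.2 and 119 CPM (log2 -0.83 for db/db control over db/m control, -0.98 to -0.69), with log2 ratios of -0.89 in early, 0.17 in middle and -0.40 in late cells. The sign in middle cells was opposite to that over all proximal cells. Late cells held 799 of the 1105 Cyp2d9 UMIs of db/m control, and their share of proximal cells was smaller in db/db control, so that segment mix and level cannot be told apart in the value over all proximal cells. Cyp2j11, of the arachidonate epoxygenase family, stood at 77.8, 47.9 and 62.2 CPM, with log2 ratios of -0.22, -0.20 and -0.83 in early, middle and late cells. Its neighbour Cyp2j5, an arachidonate epoxygenase of the proximal tubule, stood at 622, 427 and 646 CPM, a log2 ratio of -0.54, short of 1.5-fold over all proximal cells. It was past 1.5-fold lower in early cells (log2 -0.64) and short of it in middle (-0.33) and late cells (-0.41). In clusters 15, 17 and 21 Cyp2d9 had log2 ratios of -0.18, -0.87 and -0.35 and Cyp2j11 of 0.25, -0.30 and -0.91, all 6 with intervals that include 0, so the lower level of these members was not resolved within clusters.

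Among the members that were higher in db/db control, Cyp2d26, whose substrates are little known, stood at 76.3 CPM in db/m control, 163 CPM in db/db control and 222 CPM in db/db fructose (log2 1.09 with interval 0.98 to 1.21, db/db over db/m on the control diet). Cyp2d22, of the same chromosome 15 cluster as Cyp2d26, Cyp2d9 and Cyp2d12, stood at 30.7, 73.9 and 111 CPM (log2 1.27, 1.09 to 1.45). Both were lowest in db/m control, with intervals that overlapped neither db/db library. Cyp27a1, the mitochondrial enzyme that hydroxylates the side chain of cholesterol, stood at 41.3, 70.0 and 86.5 CPM (log2 0.76, 0.60 to 0.93). Cyp2c23, a renal arachidonate epoxygenase, stood at 16.95, 32.5 and 38.8 CPM (log2 0.94, 0.69 to 1.196). Cyp2d22 and Cyp2c23 were past 1.5-fold in all 3 segments, and Cyp27a1 and Cyp2d26 in middle and late cells. Within clusters 15, 17 and 21 the db/m control cells were few and the picture was less even. Cyp2d26 had log2 ratios of 1.24 (0.39 to 2.25) in cluster 15, 0.25 (-0.08 to 0.60) in cluster 17 and 0.92 (-0.32 to 2.55) in cluster 21, and so fell short of 1.5-fold in cluster 17, where db/m control had most of its cells of the 3 clusters. Cyp2d22 had 1.44, 1.00 and 1.05, past 1.5-fold in each, with an interval that includes 0 in cluster 21. Cyp27a1 had 0.34, 0.05 and 1.41 and Cyp2c23 0.95, 0.37 and 0.21, all 6 with intervals that include 0.

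The remaining measured members differed by less than 1.5-fold over all proximal cells: Cyp2d12 (193, 149 and 149 CPM), Cyp2j9 (41.1, 45.2 and 66.5 CPM), Cyp2j6 (26.7, 38.0 and 41.1 CPM), Cyp4f13 (27.7, 25.6 and 36.5 CPM) and Cyp4f17 (17.5, 22.8 and 27.4 CPM). Cyp2d12 was lower in early and middle db/db control cells (log2 -0.83 and -0.62) and near even in late cells (-0.04). In early, middle and late cells Cyp2j9 had log2 ratios of 0.12, 0.53 and 0.06, Cyp4f13 of -0.18, 0.17 and -0.33, and Cyp4f17 of 0.25, 0.42 and 0.50. Cyp2j6 had 0.33, 0.56 and 0.65, and was past 1.5-fold in late cells.

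**Figure D2:**
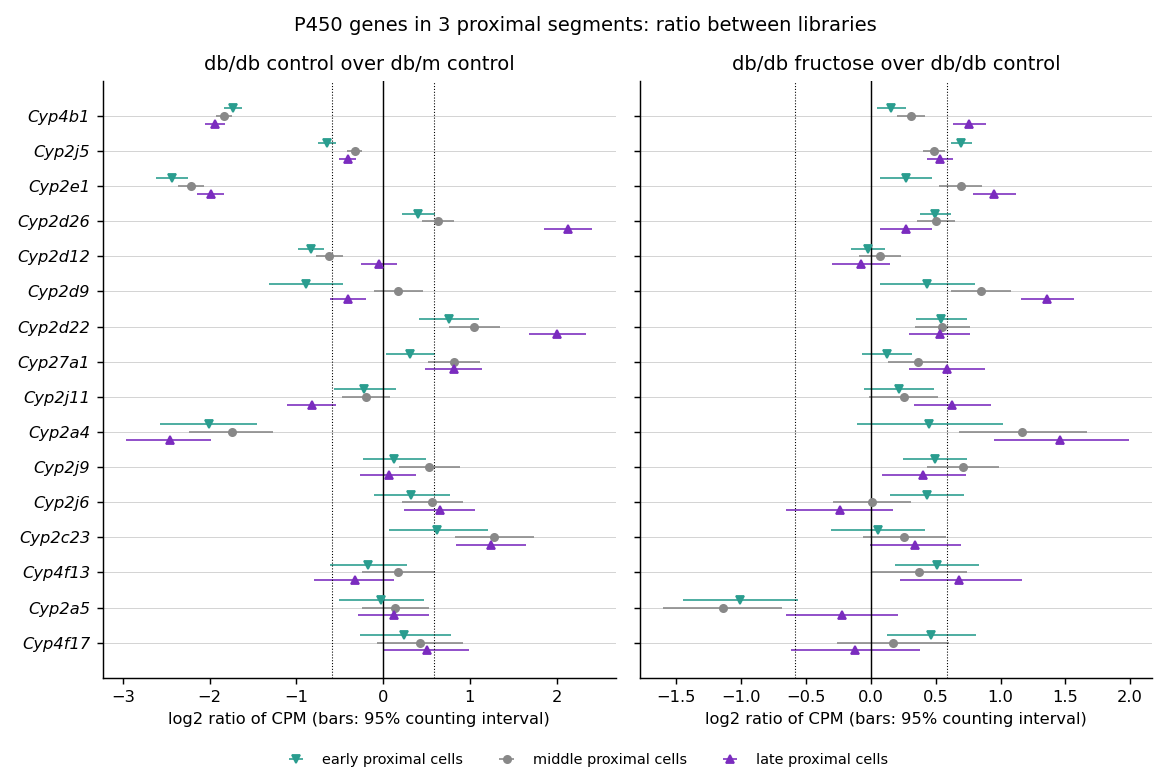
Log2 ratio of CPM for the 16 members in early, middle and late proximal cells, db/db control over db/m control on the left and db/db fructose over db/db control on the right, with 95% counting intervals and dotted lines at 1.5-fold. On the left, Cyp4b1, Cyp2e1 and Cyp2a4 lie left of the lower line in all segments and Cyp2d26 and Cyp2d22 lie farthest right in late cells, at 2.14 and 2.01.

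By segment, in early cells 2 of 16 measured members were higher in db/db control and 6 lower, against 8.16% and 16.1% of all genes measured there. In middle cells 4 were higher and 4 lower (13.6% and 21.6% of all genes). In late cells 5 of 17 were higher and 5 lower (9.33% and 14.4%). The added member in late cells was Cyp7b1, an oxysterol hydroxylase, with 70 UMIs in late cells of db/m control (13.3 CPM), 2 in db/db control and 3 in db/db fructose. Over all proximal cells Cyp7b1 had 79, 5 and 9 UMIs, 6.66, 0.45 and 0.60 CPM, a log2 ratio of db/db control to db/m control of -3.89 (-5.56 to -2.61). The levels in both db/db libraries lay below the level that free RNA could give there (1.75 and 1.86 CPM).

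Along the tubule, the db/m control library had members on both sides of the early-to-late axis. Of 17 measured, 6 were at least 1.5-fold higher in its late cells (Cyp7b1, Cyp2d9, Cyp2a4, Cyp2j11, Cyp2e1 and Cyp4b1) and 4 higher in its early cells (Cyp2d26, Cyp2d12, Cyp27a1 and Cyp2d22), against 10.2% and 8.72% of all genes. In db/db control 6 of 16 were higher in late cells and 0 in early cells (6.76% and 5.26% of all genes), and in db/db fructose 7 of 16 and 0 (8.33% and 7.15%). The 0 of db/db fructose depended on the processing: with free RNA subtracted, 3 members were higher in its early cells, Cyp2j6, Cyp2d26 and Cyp2d12 (1.70, 1.65 and 1.54 times), and with segment limits of 2/3 Cyp2d26 was (1.53 times). For db/db control both alternatives gave 0, and for db/m control 4 and 3.

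Cyp2d26 had the largest early bias among measured members in db/m control. It stood at 134 CPM in early and 32.5 CPM in late cells of db/m control, 178 and 143 CPM in those of db/db control, against 251 and 172 CPM with fructose. The early level was 4.14 times the late level in db/m control, 1.25 times in db/db control and 1.46 times in db/db fructose. Cyp2d22 stood at 38.8 CPM in early and 24.3 CPM in late cells of db/m control, at 65.6 and 97.7 CPM in db/db control and at 95.7 and 141 CPM in db/db fructose, so that its higher segment was the early one in db/m control and the late one in both db/db libraries. Cyp27a1 stood at 61.0 and 35.9 CPM in db/m control, 75.6 and 63.0 CPM in db/db control and, on fructose, 82.4 and 94.5 CPM. Free RNA moved alongside: markers of other tubule segments stood in late cells at 35.0%, 49.3% and 43.0% of the library level, in the order of libraries above. With free RNA subtracted, the early level of Cyp2d26 was 7.24, 1.33 and 1.65 times its late level, so its early bias was still largest in db/m control.

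Among measured members Cyp2d9 had the steepest late bias in each library, apart from Cyp7b1 in db/m control. It stood at 37.9 CPM in early and 152 CPM in late cells of db/m control, 20.5 and 115 CPM in those of db/db control, and, on fructose, 27.7 and 295 CPM, late levels 4.00, 5.60 and 10.6 times the early ones. Cyp2d9, Cyp2d12, Cyp2d22 and Cyp2d26 lie in 1 gene cluster on chromosome 15, and the ratio of Cyp2d9 to Cyp2d26 UMIs over all proximal cells was 1.22 in db/m control, 0.32 in db/db control and 0.54 in db/db fructose. Cyp2e1 was higher in late cells by 1.95, 2.64 and 4.25 times, and Cyp4b1 by 1.61, 1.39 and 2.12 times.

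**Figure D3:**
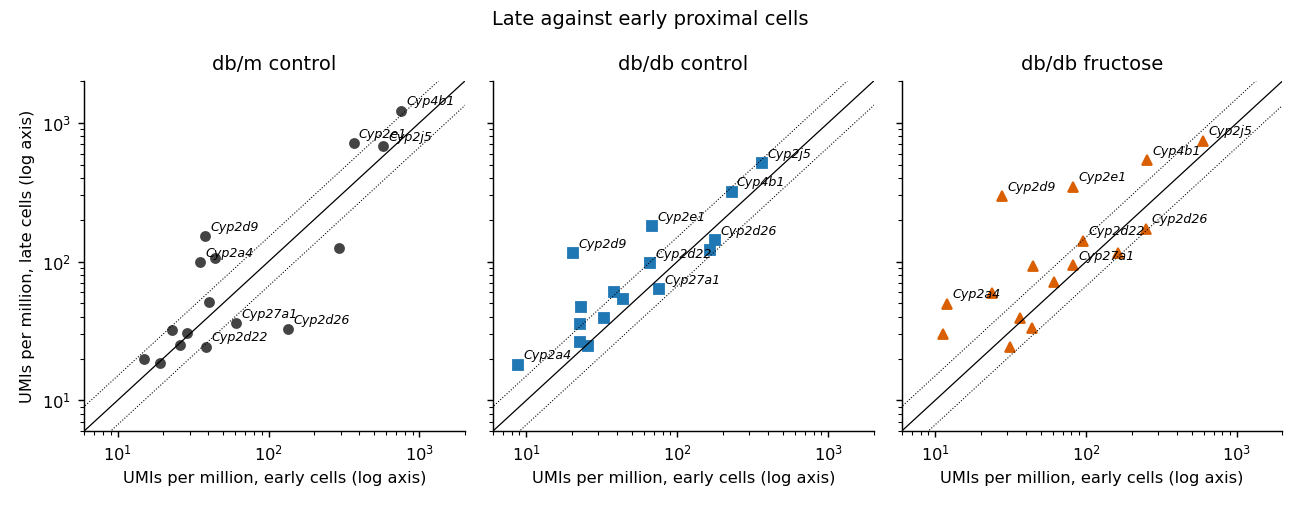
Level of the 16 members in late against early proximal cells, 1 panel per library, both axes on a log scale, with the line of equality and dotted lines at 1.5-fold (8 members are named). In db/m control, Cyp2d26, Cyp2d22 and Cyp27a1 lie below the lower dotted line, and in both db/db panels they lie between the dotted lines.

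Fructose feeding was set against the control diet within db/db mice. The median log2 ratio over 8991 measured genes was 0.27 in proximal cells, so calls are given both by the plain ratio and relative to that median. By the plain ratio, 4 of 16 members were at least 1.5-fold higher in db/db fructose (Cyp2d9, Cyp2a4, Cyp2e1 and Cyp2j5) and 1 lower (Cyp2a5), against 11.9% and 1.42% of all genes. Relative to the median, 2 were past 1.5-fold upward, Cyp2d9 and Cyp2a4, and 1 downward, Cyp2a5, against 3.89% and 3.03% of all genes. Several members lay close to the plain limit, a log2 ratio of 0.585. Cyp2j5 was just past it at 0.597, and Cyp2d22 and Cyp2j9 were just short at 0.584 and 0.557.

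Cyp2d9 was 2.27-fold higher (log2 1.18, 1.05 to 1.32, and 0.91 relative to the median), and the log2 ratio was 0.43 in early, 0.85 in middle and 1.36 in late cells (0.16, 0.57 and 1.10 relative to each segment's median). Cyp2a4 was 2.14-fold higher (log2 1.10, 0.81 to 1.39, and 0.83 relative to the median), with 0.44 in early, 1.16 in middle and 1.46 in late cells (0.17, 0.88 and 1.197 relative). Cyp2e1 had a log2 ratio of 0.74 (0.47 relative), with 0.27, 0.69 and 0.95 in early, middle and late cells. Cyp2j5 had 0.60 (0.33 relative), with 0.70, 0.49 and 0.53. Cyp4b1 had 0.41 (0.14 relative), and remained at 359 CPM against 1066 CPM in db/m control.

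Cyp2a5 was the only measured member at least 1.5-fold lower in db/db fructose, at 16.7 CPM against 28.0 CPM (1.67-fold, log2 -0.74, -0.99 to -0.50, and -1.01 relative to the median). In early cells its log2 ratio was -1.01, in middle cells -1.14 and in late cells -0.23 (-1.28, -1.42 and -0.48 relative). The pair Cyp2a4 and Cyp2a5 can be set against each other within a library, free of any scaling. Proximal cells held 791 Cyp2a4 and 341 Cyp2a5 UMIs in db/m control, 137 and 312 in those of db/db control, against 391 and 249 with fructose. The ratios were 2.32 (2.04 to 2.64), 0.44 (0.36 to 0.54) and 1.57 (1.34 to 1.85), and no 2 of these intervals overlapped. In early, middle and late cells the ratio was 1.54, 1.50 and 3.07 in db/m control, 0.39, 0.41 and 0.51 in db/db control and, on fructose, 1.07, 2.02 and 1.65. Of the 60-base words in the last 500 bases of the Cyp2a4 transcript 29.0% occur in Cyp2a5, so reads from that stretch could be lost or shared between the pair.

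**Figure D4:**
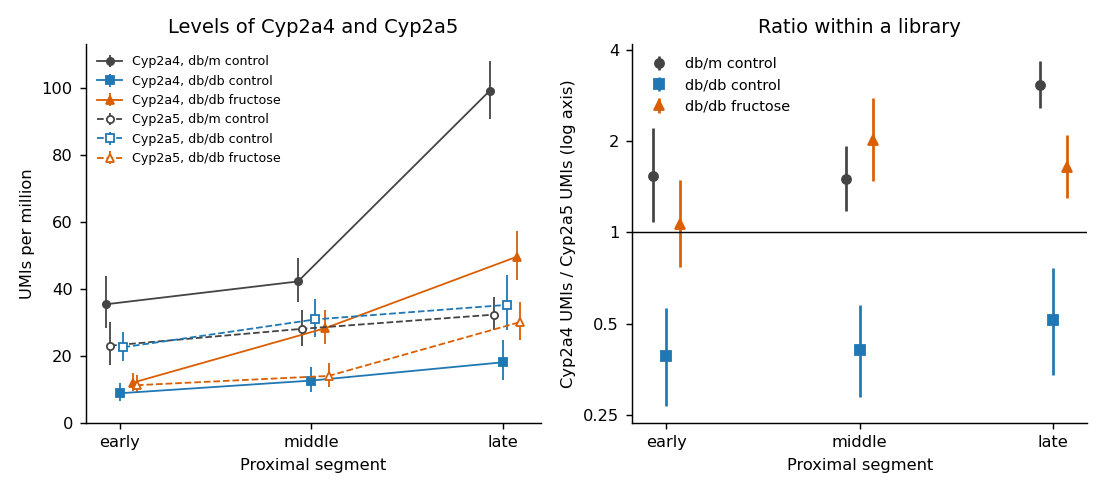
Left, levels of Cyp2a4 (filled) and Cyp2a5 (open) by proximal segment and library, with 95% counting intervals. Right, Cyp2a4 UMIs over Cyp2a5 UMIs in the same cells, on a log axis: the db/db control ratios of 0.39 to 0.51 lie below 1, and the db/m control ratios of 1.50 to 3.07 lie above it.

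In late cells 7 of 16 members were higher in db/db fructose and 0 lower (19% and 2.72% of all genes), and in early cells 1 was higher, Cyp2j5, and 1 lower, Cyp2a5 (14.9% and 1.55%). In middle cells 4 were higher and 1 lower (17.1% and 1.91%). The 7 in late cells were Cyp2a4, Cyp2d9, Cyp2e1, Cyp4b1, Cyp2j11, Cyp27a1 and Cyp4f13, at log2 ratios between 0.59 and 1.46. Relative to the median of each segment, 3 were higher in late cells (Cyp2a4, Cyp2d9 and Cyp2e1) and 0 lower, against 7.74% and 6.34% of all genes. In middle cells 1 was higher (Cyp2a4) and 1 lower (5.92% and 4.56%), and in early cells 0 and 1 (5.04% and 3.71%), the lower one being Cyp2a5 in both.

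Genes that serve P450 enzymes were counted from a list of 19. Of 18 measured in db/db control against db/m control, 1 was higher (Ephx1, the microsomal epoxide hydrolase) and 8 lower, against 7.37% and 16.6% of all genes in these cells. Those lower were cytochrome b5 (Cyb5a, 730 to 192 CPM, log2 -1.93), its reductase Cyb5r3, ferredoxin Fdx1 (111 to 54.0 CPM), soluble epoxide hydrolase Ephx2 (189 to 72.5 CPM) and 4 haem synthesis enzymes, Alas1, Alad, Urod and Cpox. P450 oxidoreductase, Por, stood at 102, 78.4 and 107 CPM, within 1.5-fold. Alas1, the rate-limiting step of haem synthesis, stood at 262 CPM in db/m control, 111 CPM in db/db control and 288 CPM in db/db fructose. In early, middle and late cells 7 of 19, 7 of 18 and 8 of 18 were lower, against 16.1%, 21.6% and 14.4% of all genes. Cyb5a, Cyb5r3, Fdx1, Ephx2, Alas1 and Urod were among them in each. Those higher were Fdxr and Ephx1 in early, Ppox in middle and Ephx1 in late cells, against 8.16%, 13.6% and 9.33% of all genes. In db/db fructose against db/db control, Alas1 and Fdx1 were higher (log2 1.38 and 0.65) and 0 of 19 lower, against 11.9% and 1.42% of all genes. Relative to the median Alas1 had 1.11 and Fdx1 0.38, short of 1.5-fold. The log2 ratio of Alas1 was 1.29, 1.37 and 1.50 in early, middle and late cells. Cyb5a stood at 222 CPM (log2 0.21, -0.06 relative).

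Of 25 known regulators of P450 genes, 17 were measured in db/db control against db/m control: 5 were higher (Prlr, Bcl6, Ppara, Nfe2l2 and Hlf) and 1 lower (Ghr), against 7.37% and 16.6% of all genes. Ghr was past 1.5-fold in late cells (log2 -1.64) and short of it in early (-0.37) and middle cells (-0.54). The prolactin receptor Prlr stood at 1.35, 23.0 and 38.0 CPM and the growth hormone receptor Ghr at 389, 178 and 253 CPM. Bcl6, a repressor that opposes growth hormone signalling, stood at 28.4, 92.8 and 18.6 CPM. In db/db fructose against db/db control 5 of 19 were higher, among them Nr1i2, Prlr, Dbp and Tef, and 1 lower (Bcl6), against 11.9% and 1.42% of all genes. Relative to the median, Dbp and Tef were higher (3.81 and 0.86) and Bcl6 and Nfe2l2 lower, against 3.89% and 3.03% of all genes, while Nr1i2 (0.36) and Prlr (0.45) were short of 1.5-fold. Dbp and Tef, factors that cycle over the day, stood at 3.63, 1.70 and 28.9 CPM and at 180, 266 and 584 CPM. Hlf, of the same list, did not rise with fructose: it stood at 143, 218 and 208 CPM, a log2 ratio of -0.07 to db/db control. The hour of collection is not given in the sources used here, and the part of these regulators in the P450 levels was not tested.

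Outside the proximal tubule, several members had their highest level in another class. To read these against free RNA, each level is set beside the level the transcript would have if the class held library RNA at the share seen for proximal markers (the free RNA level). Among 11 classes with 50 cells or more in every library, 8 of the 16 members were highest in proximal cells in all 3 libraries. Cyp2j11 was highest in macula densa-like cells of db/m control and in distal convoluted tubule-like cells of both db/db libraries. Cyp4f13 was highest in thick ascending limb-like cells of db/db control and in intercalated-like cells of the other libraries.

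Endothelium-like cells (446, 961 and 940 cells) carried Cyp26b1 and Cyp20a1 at their highest level of the classes, and Cyp4b1 in both db/db libraries. Cyp26b1, which degrades retinoic acid, had 212, 866 and 783 UMIs there, 93.0%, 88.1% and 89.1% of its UMIs in the libraries. Its level was 163 CPM in db/m control, 358 CPM in db/db control and 286 CPM in db/db fructose, against free RNA levels of 3.48 to 11.1 CPM. In the Ehd3-high cluster 9, the log2 ratio of db/db control over db/m control was 1.30 (1.05 to 1.55), and in the Plvap-high cluster 19 it was 1.51 (1.01 to 2.04). For fructose over control diet it was -0.56 in cluster 9 and 0.06 in cluster 19. Among all 9576 genes measured in endothelium-like cells, 7.47% were at least 1.5-fold higher in db/db control, and their median log2 ratio was -0.10. Cyp20a1, a P450 whose substrate is not settled, stood at 73.9, 71.2 and 82.2 CPM in endothelium-like cells and between 4.57 and 5.65 CPM in proximal cells. Cyp2d22 stood at 45.4, 44.3 and 55.2 CPM in endothelium-like cells, above its proximal level in db/m control and below it in both db/db libraries.

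Cyp4b1 was high in endothelium-like cells as well, at 891, 531 and 508 CPM, or 3.47, 7.05 and 7.32 times its free RNA level. In thick ascending limb-like cells the same gene stood at 356, 96.4 and 80.4 CPM, 1.12, 0.97 and 0.79 times the free RNA level. In cluster 9 Cyp4b1 differed less between db/db control and db/m control (log2 -0.36, -0.50 to -0.23) than in proximal cells (log2 -1.98), and in cluster 19 the log2 ratio was -1.07. The difference between classes was not tested. In db/db control and db/db fructose Cyp4b1 stood higher in endothelium-like than in proximal cells.

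Connecting tubule and principal-like cells carried Cyp7b1, at 33.7, 27.6 and 37.2 CPM (95, 66 and 107 UMIs) against free RNA levels of 0.98 to 2.36 CPM. In cluster 5, the principal cell cluster with Aqp2 among its leading genes, the log2 ratio of db/db control over db/m control was 0.08 (-0.46 to 0.61), and in cluster 8, the other cluster of the class, -0.69 (-1.80 to 0.44, from 17 and 14 UMIs), beside -3.89 in proximal cells. That difference between classes was not tested. Cyp39a1, another oxysterol hydroxylase, stood there at 14.5, 10.0 and 9.05 CPM. In db/db control and db/db fructose it also stood at 11.8 and 21.3 CPM in intercalated-like and at 7.46 and 6.85 CPM in thick ascending limb-like cells.

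Intercalated-like cells carried Cyp2s1, an epithelial P450, at 64.4, 52.9 and 69.6 CPM, against 2.45 to 5.20 CPM in proximal cells and free RNA levels of 2.55 to 11.3 CPM. Cyp2u1, a fatty acid hydroxylase, stood at 35.8, 31.7 and 35.2 CPM in intercalated-like, 26.2, 28.3 and 19.3 CPM in thick ascending limb-like and 26.5, 20.9 and 22.9 CPM in distal convoluted tubule-like cells, against 4.22 to 6.63 CPM in proximal cells. Cyp2j6 stood at 63.9, 57.0 and 69.5 CPM in distal convoluted tubule-like cells, above its proximal level in each library. Cyp46a1, a cholesterol hydroxylase best known from brain, had 27 and 34 UMIs in thick ascending limb-like cells of the db/db libraries (8.39 and 8.31 CPM).

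Podocyte-like cells of db/m control (105 cells) carried Cyp27a1 at 143 CPM (47 UMIs) and Cyp1b1, which oxidises oestrogens and aromatic hydrocarbons, at 70.0 CPM (23 UMIs). The db/db libraries held 7 and 12 podocyte-like cells, too few for a comparison. Mononuclear phagocyte-like cells carried Cyp27a1 at 48.6, 58.5 and 76.7 CPM, against free RNA levels of 10.4 to 17.9 CPM. Cyp4v3 and Cyp4f16, both fatty acid hydroxylases of the Cyp4 family, passed the rule with 20 to 37 UMIs per class in several distal, endothelial or phagocyte classes, at 5.62 to 27.9 CPM.

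**Figure D5:**
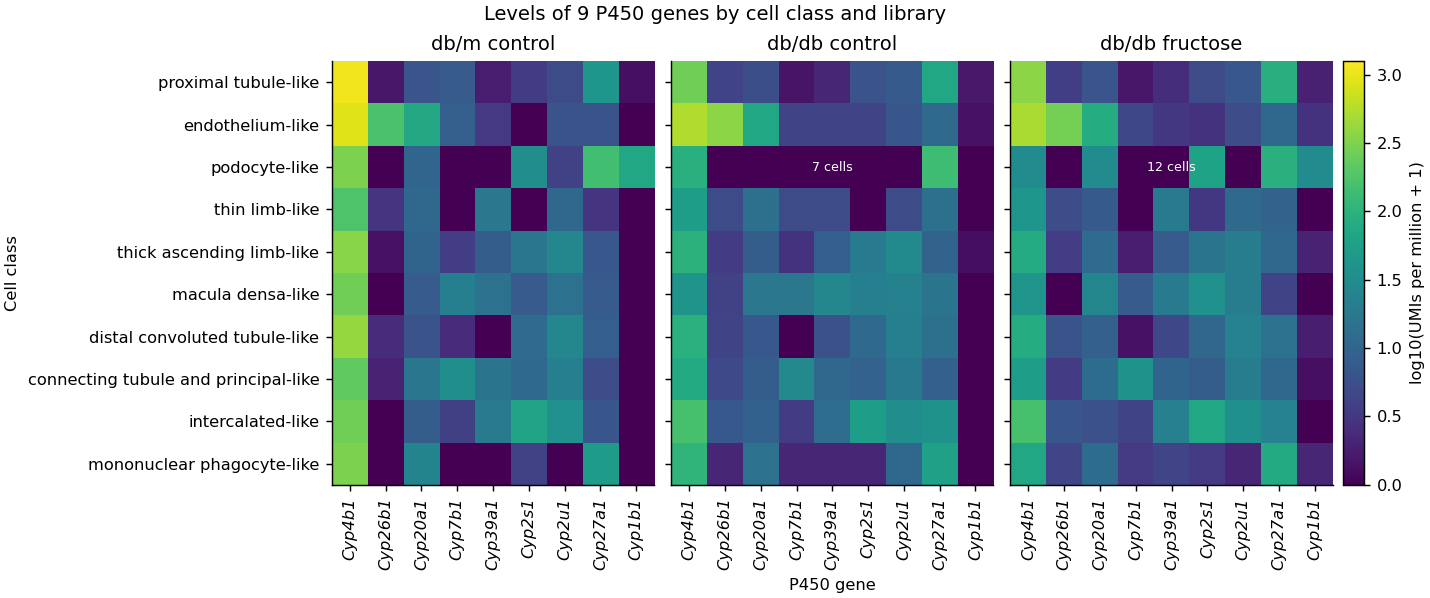
Level of 9 members in 10 cell classes, 1 panel per library, as log10 of CPM plus 1, with podocyte-like rows of 7 and 12 cells marked. Cyp26b1 and Cyp20a1 stand out in endothelium-like cells of every library, Cyp7b1 in connecting tubule and principal-like cells and Cyp2s1 in intercalated-like cells.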

How the data were processed

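The deposited matrices are raw UMI counts; the submitters' processing notes name Cell Ranger 6.0.0 and mm10 as what the authors used; the annotation release and the kit's end are not given in the sources used here. Barcodes were kept if they had 200 genes or more and no more than 50% of UMIs from the mitochondrial genome. Scrublet scores were computed per library, and since its own threshold marked 0% of barcodes, the highest-scoring barcodes were removed at 0.8% per 1000 barcodes. Counts were scaled to 10000 per cell, and 2000 variable genes without P450 genes, 30 components and 15 neighbours gave 29 Leiden clusters at resolution 1 (scanpy 1.11.5), with no batch integration. Clusters took a class name from marker lists (at least 3 markers passing, mean log2 fold of at least 1.2, margin of 0.5). That naming rule was revised after the clusters were seen, and unnamed clusters stayed out. The segment score divides the difference of the early and late sums by their total, with limits at 1/3 and -1/3, and cells with under 3 such UMIs stayed unplaced.

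UMIs were summed per class and library and given as CPM. A gene was measured at 10 CPM in either library and called at a ratio of 1.5. No test was run, each group being 1 library; intervals are 95% exact Poisson or conditional binomial intervals. Named genes were all members at 10 CPM in proximal cells, and those with 20 UMIs and 2 times the proximal level in another class. Members, lists and rules were chosen with earlier results of these data known. Counting was tested on simulated data. Positions are from GENCODE M21 and promoters from RefSeq GRCm38.p6; all 89 members matched the former by identifier. Alternatives were other scalings, cell filters, clusterings, segment limits, thresholds and a subtraction of free RNA.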

Additional observations from a re-analysis of the deposited data

Results flagged for a closer look

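In several cases a member was at least 1.5-fold higher in 1 class and at least 1.5-fold lower in another under the same contrast. None of these differences between classes was tested, each group being 1 library. All but the last pair are for db/db control over db/m control, and in each the intercalated-like cells go against the others. Cyp2j11 had a log2 ratio of 0.84 in intercalated-like and -0.83 in late proximal cells. Cyp2j5 had 0.87 in intercalated-like cells, against -0.80 in distal convoluted tubule-like, -0.64 in early proximal, -0.64 in endothelium-like, -0.63 in erythroid-like, -0.82 in lymphocyte-like and -1.49 in macula densa-like cells. Cyp2d9 had 2.39 in intercalated-like cells, against -0.89 in early proximal and -0.72 in thick ascending limb-like cells. Cyp2d12 had 2.60 in intercalated-like cells, against -0.83 in early and -0.62 in middle proximal cells. For db/db fructose over db/db control, Cyp27a1 had 0.59 in late proximal and -0.69 in intercalated-like cells. Proximal markers moved with these values: in intercalated-like cells they stood at 32.7%, 99.5% and 71.8% of their library level in db/m control, db/db control and db/db fructose, and their part in the ratios was not tested. The other classes outside the proximal tubule held them too. In distal convoluted tubule-like, erythroid-like and lymphocyte-like cells the markers stood at 48.6%, 59.1% and 52.7% in db/m control. In db/db control these were 49.9%, 65.3% and 54.3%. Over all kept cells Cyp2j5 had a log2 ratio of -0.69, and the part of free RNA in its ratios was not tested. Over all genes measured in intercalated-like cells, 34.2% were at least 1.5-fold higher in db/db control than in db/m control, with a median log2 ratio of 0.22.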

How the results depend on the processing

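No paired analysis was possible because each group has 1 library. No member ratio reversed among the called ones: each of the 9 calls between db/db control and db/m control in proximal cells kept its side of 1.5-fold in 9 of 9 alternatives. For fructose against control diet, Cyp2d9, Cyp2a4 and Cyp2a5 did so, Cyp2e1 in 7 and Cyp2j5 in 5. Of the members just short of the limit there, Cyp2d22 kept its side in 6 and Cyp2j9 in 7.

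Counts of members moved by over 1.5 times as follows, with the main counts in the report. The number measured and the share over all genes can change with each setting and are not given here. These counts therefore describe the processing and are not a result about the members. For db/db control over db/m control, a minimum of 1 CPM gave 11 higher in all proximal cells, 8 in early and 11 in late cells, and a minimum of 50 CPM gave 1 higher in early and 3 in late cells. A ratio of 2 gave 2 higher and 3 lower in all proximal cells, 0 and 3 in early cells, and 3 higher in late cells. Ignoring doublet scores, subtracting free RNA, or segment limits of 2/3 each gave 1 higher in early cells. For db/db fructose over db/db control, size factors and CPM over UMIs outside the mitochondrial genome each gave 2 higher in all proximal cells, 0 in early and 3 in late cells. A minimum of 1 CPM gave 3 lower in all proximal, in early and in late cells, and 4 higher in early cells, and a minimum of 50 CPM gave 0 lower in all proximal and in early cells. A ratio of 2 gave 2 higher and 0 lower in all proximal cells, 0 higher in early and 2 higher in late cells. In early cells, ignoring doublet scores gave 3 higher, subtracting free RNA 2 higher and 2 lower, the late list with androgen-dependent genes 2 higher, and limits of 2/3 5 higher. In late cells those limits gave 1 lower. For late over early cells, a split at 0 gave 2 lower in db/m control, and in db/db fructose limits of 2/3 gave 1 lower and free RNA subtraction 3 lower. The cause of these moves was not tested beyond what each threshold does by its construction. Leaving out a replicate was not possible with 1 library per group.

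Counting error limits members below 10 CPM, and between libraries no spread of mice is known. Genotype or diet, tissue state and library cannot be told apart. Near-copies limit Cyp2a4, Cyp2a5, Cyp2d9 and Cyp2d26, of whose transcript ends 36.5%, 24.2%, 26.5% and 20.4% recur in other genes.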

Other observations

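Some class-restricted members lay outside the naming rule and were chosen after their values were seen. Cyp1b1 had 1 UMI in the 85 db/m control cells of an unnamed cluster led by Ccn2, Adamts5 and Itga8, 22 UMIs in its 94 db/db control cells and 112 UMIs in its 393 db/db fructose cells. These are 7.31 CPM (95% counting interval 0.19 to 40.7), 116 CPM (72.4 to 175) and 165 CPM (136 to 199). Cyp4f18, a leukotriene hydroxylase of white blood cells, had 18 UMIs in 24 neutrophil-like cells of db/db control and 17 UMIs in 42 of db/db fructose (405 and 275 CPM), and 1 UMI in the 4 such cells of db/m control. Cyp1a1, the classic target of the aryl hydrocarbon receptor, had 7, 18 and 5 UMIs in intercalated-like cells of db/m control, db/db control and db/db fructose, out of 7, 24 and 5 in all kept cells. That class held 698301, 2459193 and 1221792 UMIs in all, so the Cyp1a1 counts do not rank its levels between libraries.

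The HNF4 motif CAAAGTCCA, searched on both strands, occurred in 13.6% of the member promoters (11 of 81) and in 0.38% of all 32851 promoters. The members that hold it are Cyp2c40, Cyp2c65, Cyp2c67, Cyp2c68, Cyp2c69, Cyp2c70, Cyp3a11, Cyp3a16, Cyp3a41a, Cyp3a41b and Cyp8b1, none of which reached 10 CPM in proximal cells. Close copies within a family share their promoter letters, so these are not independent.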
